A study of Mus musculus with 10 samples.

Results

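Immediate early genes of the AP-1 and Egr families were followed in RNA-seq of mouse colon. The 10 genes were Jun, Junb, Fos, Fosb, Fosl1, Atf3, Egr1, Egr2, Ier3 and Dusp1. They were chosen by name from the 23473 genes to which the deposited transcript table was summed. Each was represented by 1 RefSeq transcript, measured as FPKM (fragment numbers corrected for transcript length and for the mapped fragments of each library). All 10 genes reached 1 FPKM in at least 2 libraries and so were among the 14061 genes tested. Egr2 and Fosl1 reached that level only in mice given azoxymethane and dextran sulfate sodium.

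All mice were C57BL/6 on the AIN-93M diet, and the 5 groups had 2 libraries each, 10 in all. Control mice were injected with saline at 6 weeks of age. Model mice were injected at that age with azoxymethane (AOM, a colon carcinogen) at 10 mg/kg, and later drank dextran sulfate sodium (DSS, which injures the colon lining) at 1.2% for 7 days. After the same AOM and DSS, the ASA group ate 0.02% aspirin, the CUR group 2% curcumin, and the ASA+CUR group 0.01% aspirin with 1% curcumin, which is less of each agent than when it was fed alone. AOM and DSS were always given together, and their parts cannot be told apart. The labels call the Control samples colonic tissue and the 8 AOM/DSS samples tumor, whereas the protocol describes colon frozen once its proximal end and palpable tumors were gone. Each group's libraries are numbered 0 and 1. Nothing in the labels shows that they came from separate mice, and p-values here reflect only how far the libraries of a group differ, a spread that may be technical.

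Immediate early genes are transcribed within minutes of a growth factor, cytokine or stress signal, without new protein synthesis, and their mRNAs are short-lived. MAP kinases activate the ternary complex factors, which with serum response factor switch on Fos and Egr genes. Proteins of the Fos family pair with proteins of the Jun family to form AP-1, whereas Egr proteins are zinc finger factors that are held in check by the Nab corepressors. In the colon these genes are known for their response to injury, inflammation and growth signals.

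Promoter sequence was taken from RefSeq windows of GRCm38.p6 for the 250 bases before the annotated start. Windows of 8 of the 10 genes were used, with 1 window each except for 5 in Egr2. Egr1 and Fosl1 were not analysed here for promoter motifs. Jun, Junb and Fos are shown whole because they carry the Jun and Fos family results, and capitals mark matches to the motifs searched on both strands. In Jun (chr4:95052223-95052472, minus strand) the capitals mark TGACATCA, the variant AP-1 site known as the Jun promoter element, 45 bases before the start. No motif was matched in Junb (chr8:84978749-84978998, minus strand). In Fos (chr12:85473640-85473889, plus strand) they mark a kappaB match 214 bases before the start and TATAAA 33 bases before it.
Jun: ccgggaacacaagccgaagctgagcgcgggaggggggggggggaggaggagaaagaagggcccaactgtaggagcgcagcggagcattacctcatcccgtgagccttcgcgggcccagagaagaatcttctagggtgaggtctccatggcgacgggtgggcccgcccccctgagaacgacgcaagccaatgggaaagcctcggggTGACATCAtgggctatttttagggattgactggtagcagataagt
Junb: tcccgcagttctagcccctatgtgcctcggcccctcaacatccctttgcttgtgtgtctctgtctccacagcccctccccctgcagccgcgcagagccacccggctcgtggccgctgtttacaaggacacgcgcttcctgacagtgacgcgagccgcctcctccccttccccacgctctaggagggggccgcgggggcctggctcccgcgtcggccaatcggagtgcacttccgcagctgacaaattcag
Fos: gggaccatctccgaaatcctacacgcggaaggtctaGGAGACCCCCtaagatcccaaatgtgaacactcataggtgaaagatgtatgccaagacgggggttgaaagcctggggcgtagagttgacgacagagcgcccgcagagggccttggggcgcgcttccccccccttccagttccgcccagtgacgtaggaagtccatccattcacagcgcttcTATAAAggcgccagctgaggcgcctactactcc

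Stretches of 30 bases are shown for Egr2 and Ier3, which differed from Control, and for the feedback gene Dusp1. In Egr2 (chr10:67537787-67537816, plus strand) the capitals mark a CArG box, the serum response factor motif, 72 bases before a start. In Ier3 (chr17:35821611-35821640, plus strand) they mark a kappaB match 92 bases before the start. In Dusp1 (chr17:26508597-26508626, minus strand) they mark TGACGTCA, the cyclic AMP response element, 143 bases before the start.
Egr2: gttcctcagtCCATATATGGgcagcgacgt
Ier3: tgcgaagggcGGAGTTCCCCccggcccggc
Dusp1: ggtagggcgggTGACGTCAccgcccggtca

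A gene was counted when any of its windows held a match, for the 8 genes and for the 27025 mouse genes with a window of this length. The Jun element TGACATCA was held by 1 of the 8, and by 3.41% of all these genes. The cyclic AMP response element was matched only in Dusp1 and the CArG box only in Egr2 among the 8, against 1.77% and 1.62% of all genes. A kappaB match, searched by its usual consensus, was found in 4 of the 8 genes (Fos, Fosb, Egr2 and Ier3) and in 8.23% of all genes. In Egr2 it lay only in the window furthest upstream (chr10:67535249-67535498), which belongs to another start than the CArG box shown. The Egr motif GCGNGGGCG was matched in Fosb alone (5.33% of all genes) and TATAAA in Fos alone (14.3%). The canonical AP-1 motif TGANTCA was in none of the 8 and in 7.82% of all genes. These are matches of letters in short windows and show no binding.

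The files give FPKM only, so the read depth of each library is unknown. FPKM summed to between 515959 and 720895 per library, and 12781 to 13283 genes reached 1 FPKM. The colon epithelium markers found in the table were present in all libraries, at a summed 10992 and 12515 FPKM in Control and 6948 to 17158 FPKM in AOM/DSS (11 genes, 1 of them called lower in AOM/DSS). Smooth muscle markers were far lower in AOM/DSS (8 of 8 called lower, a summed 5610 and 9228 FPKM in Control against 297 to 898 FPKM). Enteric neuron and glia markers (9 of 10 called lower) summed to 94.1 and 95.2 FPKM in Control against 7.06 to 16.6 FPKM, and adipocyte markers (3 of 4 tested called lower) to 121 and 126 FPKM against 12.0 to 108 FPKM. Fibroblast markers summed to 373 and 428 FPKM in Control against 492 to 1101 FPKM (5 of 6 called higher, 1 lower). Neutrophil markers summed to 1.39 and 3.86 FPKM in Control and to 65.9 to 533 FPKM in AOM/DSS (4 of 6 called higher). Macrophage markers summed to 91.0 and 139 FPKM against 183 to 516 FPKM (4 of 7 called higher). Squamous epithelium markers summed to 8.08 and 8.24 FPKM against 27.6 to 891 FPKM (5 of 8 tested called higher). The part of this tissue makeup in the results below was not tested, and in bulk tissue fewer cells of a type and less RNA per cell cannot be told apart.

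Ier3, Jun, Egr2 and Junb were higher in the AOM/DSS colon, whereas Fos and Atf3 had mean changes near 0. Over the 4 AOM/DSS groups pooled against Control, limma on log2(FPKM + 1) called 4 of the 10 genes higher and none lower. At that threshold (adjusted p under 0.05) 14.6% of all tested genes were called higher and 16.9% lower. Unadjusted p was under 0.05 for 6 of the 10 and for 43.8% of all tested genes. All 8 AOM/DSS libraries lay above both Control libraries for 5 of the 10 genes (Jun, Junb, Fosl1, Egr2 and Ier3), a pattern held by 20.1% of all tested genes. The median log2 difference of the 10 genes was 0.94, beside 0.02 over all tested genes. Since Egr2 and Fosl1 passed the filter only through AOM/DSS libraries, these counts and the median are a description. Jun, Junb and Egr2 lost their calls without either Control library, where 1 Control library is left and calls fell over all tested genes as well. Over all settings the pooled log2 difference ran from 2.309 to 2.935 for Ier3 and from 0.785 to 0.9597 for Jun. It ran from 0.9312 to 1.375 for Junb and from 0.5745 to 1.651 for Egr2.

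**Figure D1:**
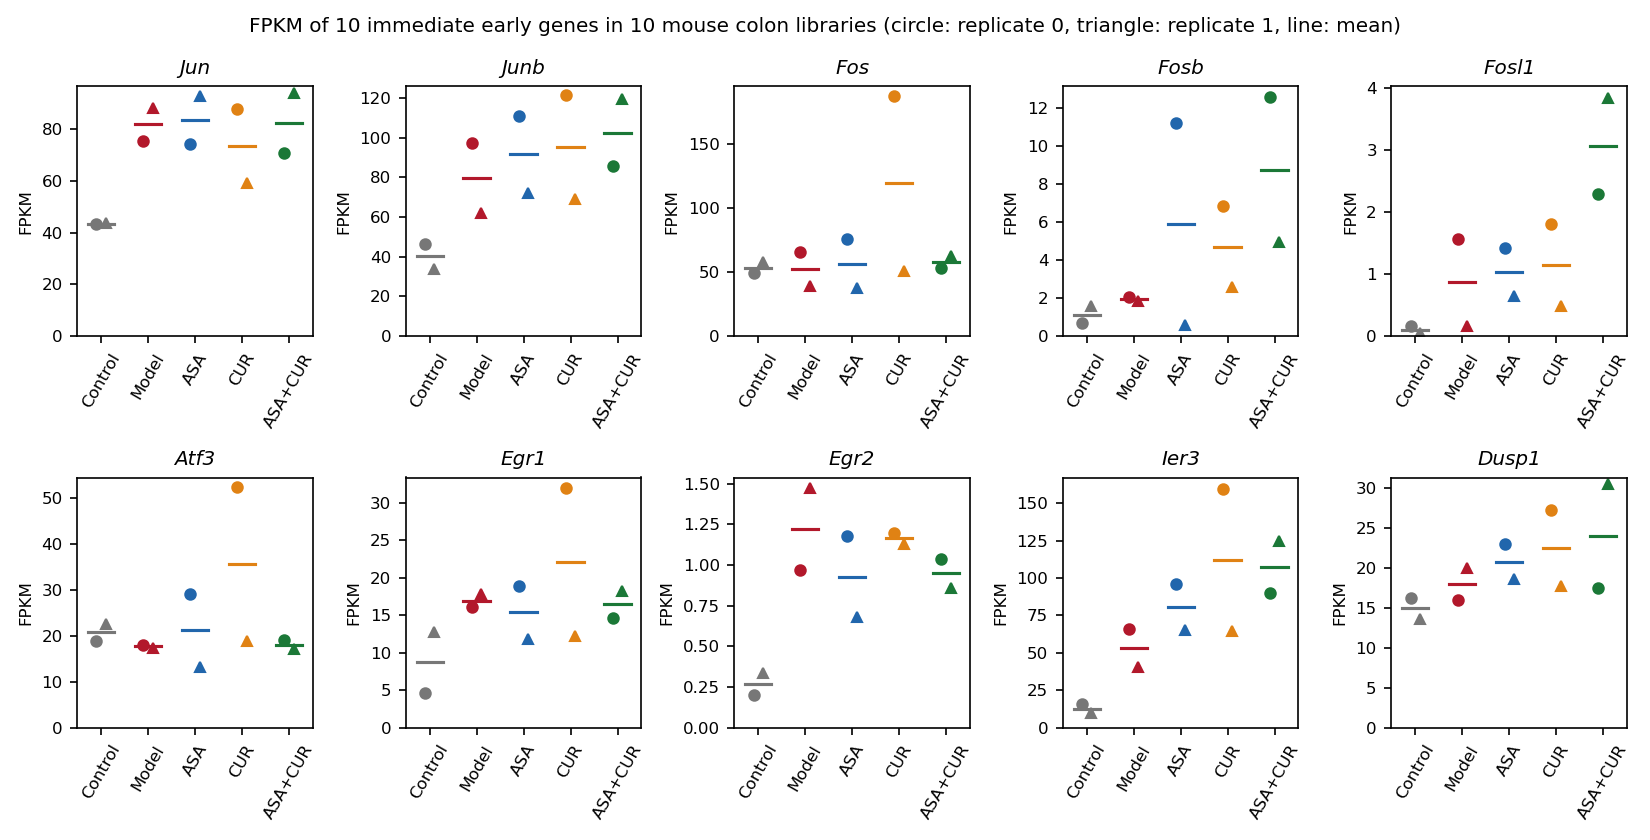
FPKM (vertical axis, linear) of each of the 10 genes in the 10 libraries, by group on the horizontal axis; circles are replicate 0, triangles replicate 1 and lines the mean of 2 libraries. Ier3, Jun, Junb, Egr2 and Fosl1 have all 8 AOM/DSS libraries above both Control libraries, and CUR replicate 0 stands highest for Fos at 187 FPKM.

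Jun, at chr4:95049036-95052222 of GRCm38.p6, encodes a strongly activating AP-1 subunit. It measured 43.2 and 43.8 FPKM in Control, 75.5 and 88.3 in Model, 74.2 and 92.8 in ASA, 87.7 and 59.1 in CUR, and 70.8 and 94.2 in ASA+CUR. The Control libraries nearly coincided, and the lowest AOM/DSS library, CUR replicate 1, was still above both. The pooled log2 difference from Control was 0.86 ± 0.18 (SE, limma adjusted p = 0.00955), a ratio of mean FPKM of 1.85.

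Junb, at chr8:84976909-84978748, encodes a Jun family subunit that often restrains Jun. Its FPKM was 46.5 and 33.9 in Control, 97.1 and 62.2 in Model, 111 and 72.3 in ASA, 122 and 69.3 in CUR, and 85.5 and 119 in ASA+CUR. Replicate 0 was the higher library in every group but ASA+CUR, and all AOM/DSS libraries were above Control. Pooled over AOM/DSS, the log2 difference was 1.15 ± 0.28 (SE, limma adjusted p = 0.0176).

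Fos, at chr12:85473890-85477274, is the founding Fos family gene. It measured 49.1 and 57.7 FPKM in Control, 65.9 and 39.0 in Model, 75.9 and 37.2 in ASA, 187 and 51.0 in CUR, and 53.4 and 62.7 in ASA+CUR. The Control range lay inside the AOM/DSS range, and 4 of 8 AOM/DSS libraries were above both Control libraries. The pooled log2 difference was 0.23 ± 0.46 (SE, limma adjusted p = 0.73, 95% interval -0.83 to 1.28), and without CUR replicate 0 it was -0.00317.

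Fosb, at chr7:19302696-19310118, is another Fos family gene, known for stable splice products that build up under repeated stimulation. It varied widely within groups, at 0.677 and 1.58 FPKM in Control, 2.08 and 1.87 in Model, 11.2 and 0.579 in ASA, 6.84 and 2.58 in CUR, and 12.6 and 4.94 in ASA+CUR. The ASA libraries held its second highest and its lowest value. Against Control the pooled log2 difference was 1.26 ± 0.69 (SE, limma adjusted p = 0.198), and without ASA replicate 1 it was 1.63 (adjusted p = 0.0229).

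Fosl1, at chr19:5447698-5455938, encodes Fra-1, a Fos family protein that AP-1 itself induces in invading epithelial cells. Its FPKM was low throughout, at 0.159 and 0.0439 in Control, 1.57 and 0.171 in Model, 1.42 and 0.641 in ASA, 1.80 and 0.487 in CUR, and 2.29 and 3.84 in ASA+CUR. All 8 AOM/DSS libraries were above Control, Model replicate 1 only just, and the ASA+CUR libraries were the highest 2 of the 10. Fosl1 passed the filter only through AOM/DSS libraries, so its p-values are a description. The pooled log2 difference of 1.07 ± 0.35 (SE) narrowly missed the threshold (limma adjusted p = 0.0521) and passed it with a pseudocount of 0.5 or 0.1 (adjusted p = 0.0428 and 0.0264), as it did without Model replicate 1 or CUR replicate 1 (adjusted p = 0.0229 and 0.0329).

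Atf3, at chr1:191170296-191183333, encodes a stress-induced factor of the ATF family that dimerises with Jun proteins. It measured 19.0 and 22.6 FPKM in Control, 18.1 and 17.3 in Model, 29.2 and 13.2 in ASA, 52.5 and 18.8 in CUR, and 19.1 and 17.1 in ASA+CUR. Apart from ASA replicate 0 and CUR replicate 0, every AOM/DSS library was below Control replicate 1. In log2 terms the pooled difference was 0.03 ± 0.37 (SE, limma adjusted p = 0.959, 95% interval -0.83 to 0.89).

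**Figure D2:**
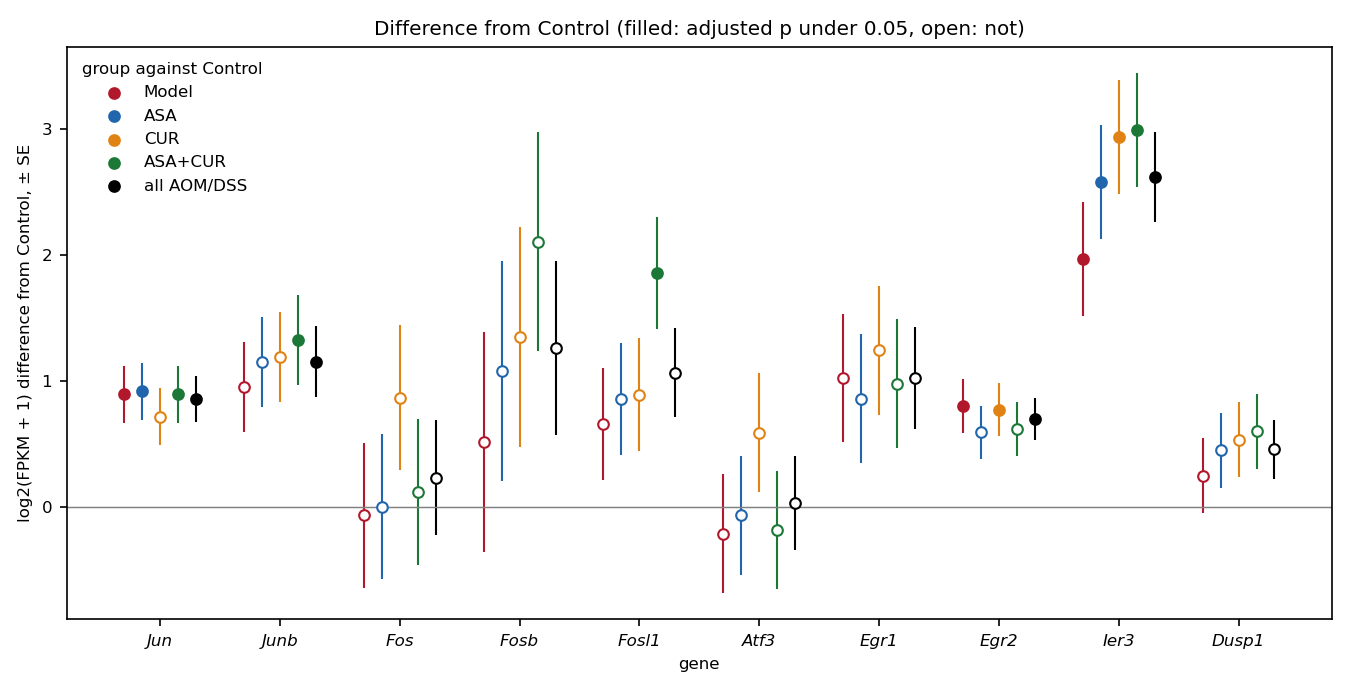
Difference from Control in log2(FPKM + 1) (vertical axis) with its standard error, for each of the 10 genes (horizontal axis), in each AOM/DSS group and in all 4 pooled; filled points have a limma adjusted p under 0.05. Ier3 is filled in every comparison, while Fos, Fosb, Atf3, Egr1 and Dusp1 are open in every one.

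Egr1, at chr18:34861207-34864956, is the growth factor responsive Egr gene. It measured 4.63 and 12.8 FPKM in Control, 16.1 and 17.8 in Model, 18.9 and 11.8 in ASA, 32.0 and 12.2 in CUR, and 14.6 and 18.2 in ASA+CUR. The wide gap between the Control libraries let 2 AOM/DSS libraries fall inside their range. The pooled log2 difference was 1.02 ± 0.40 (SE, limma adjusted p = 0.0884), and without CUR replicate 1 it was 1.19 (adjusted p = 0.0341). It rested on the Control pair, at 0.38 without Control replicate 0 (limma adjusted p = 0.633) and 1.67 without Control replicate 1 (adjusted p = 0.0659).

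Egr2, at chr10:67534469-67542188, encodes an Egr factor known from Schwann cells and from T cell restraint. It stood at 0.204 and 0.337 FPKM in Control, 0.972 and 1.48 in Model, 1.18 and 0.678 in ASA, 1.20 and 1.13 in CUR, and 1.04 and 0.860 in ASA+CUR. The groups did not overlap, and the AOM/DSS libraries were close to each other. On the log2 scale the pooled difference was 0.70 ± 0.17 (SE, limma adjusted p = 0.0161), which understates a ratio of mean FPKM of 3.94 because the level is near the pseudocount of 1. Egr2 passed the filter only through AOM/DSS libraries, so this p-value is a description.

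Egr3, the related factor that Egr1 can induce, moved the same way from a lower level. It measured 0.0655 and 0.108 FPKM in Control and 0.240 to 1.12 FPKM in the 8 AOM/DSS libraries, with a pooled log2 difference of 0.68 ± 0.19 (SE, limma adjusted p = 0.0305). The corepressor genes Nab1 (15.3 ± 0.848 FPKM in Control and 20.2 ± 3.45 in AOM/DSS, SD, n = 2 and 8) and Nab2 (4.42 ± 0.184 and 7.38 ± 1.95) missed the threshold, with limma adjusted p of 0.0857 and 0.111. Of 3 tested genes in the list of other Egr factors and Nab corepressors, Egr3 alone was called in the pooled comparison. Egr3 passed the filter only through ASA replicate 0 and ASA+CUR replicate 0, so its p-value and calls are a description. Without either of these libraries Egr3 was not tested. It was not called without either Control library or ASA+CUR replicate 1. In ASA+CUR against Control, Nab1 (0.62 ± 0.18, limma adjusted p = 0.0364) was called as well.

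Ier3, at chr17:35821713-35822911, encodes a short-lived protein that acts in NF-kappaB and ERK signalling and in survival of stressed cells. It measured 15.7 and 9.79 FPKM in Control, 65.8 and 40.3 in Model, 96.1 and 65.5 in ASA, 159.7 and 64.8 in CUR, and 89.9 and 125 in ASA+CUR. Even the lowest AOM/DSS library, Model replicate 1, was well above Control. The pooled log2 difference was 2.62 ± 0.36 (SE, limma adjusted p = 0.00145), a ratio of mean FPKM of 6.95.

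Dusp1, at chr17:26505591-26508472, encodes a phosphatase that switches MAP kinases off. It measured 16.3 and 13.6 FPKM in Control, 16.0 and 20.0 in Model, 22.9 and 18.6 in ASA, 27.3 and 17.7 in CUR, and 17.4 and 30.5 in ASA+CUR. Model replicate 0 fell within the Control range, and the other 7 AOM/DSS libraries were above it. Pooled over AOM/DSS, the log2 difference was 0.46 ± 0.23 (SE, limma adjusted p = 0.172).

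In Model against Control, which asks what AOM and DSS change on the plain diet, 3 of the 10 genes were called higher by limma, where 6.84% of all tested genes were. They were Ier3 (log2 difference 1.97 ± 0.45, adjusted p = 0.0248), Jun (0.89 ± 0.23, adjusted p = 0.0353) and Egr2 (0.80 ± 0.21, adjusted p = 0.0389). Junb differed by 0.95 ± 0.36 and Egr1 by 1.02 ± 0.51 without a call (limma adjusted p = 0.112 and 0.217). Junb differed by 0.63 without Model replicate 0, and Egr1 by 0.38 and 1.67 without Control replicate 0 and 1. The differences of Fosl1 (0.66), Fosb (0.51), Dusp1 (0.25), Fos (-0.07) and Atf3 (-0.21) each depended on single libraries. Without 1 library they ran from 0.09 to 1.22 for Fosl1 (without Model replicate 0 and 1) and from 0.20 to 0.83 for Fosb (without Control replicate 0 and 1). For Dusp1 they ran from 0.09 to 0.40 (without Model replicate 1 and 0, and 0.13 without Control replicate 1), for Fos from -0.44 to 0.30 (without Model replicate 0 and 1) and for Atf3 from -0.33 to -0.09 (without Control replicate 0 and 1). Both Model libraries exceeded both Control libraries for 7 of the 10 genes, beside 32.7% of all tested genes. Ier3 and Jun lost their calls without any 1 of the 4 libraries, and Egr2 without either Control library or Model replicate 1. Calls over all tested genes fell in those fits as well, where 1 group is left with 1 library. Egr2 passed the filter only through AOM/DSS libraries, so its call is a description.

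On the agent diets the set of calls varied. In ASA against Control limma called Ier3 (log2 difference 2.58 ± 0.45, adjusted p = 0.00649) and Jun (0.92 ± 0.23, adjusted p = 0.025), 2 of the 10 genes where 9.78% of all tested genes were called higher. Jun lost its call without ASA replicate 1 (limma adjusted p = 0.132). Without either Control library limma called fewer of the 10, and fewer of all tested genes, in both ASA and CUR. In CUR against Control it called Ier3 (2.94 ± 0.45, adjusted p = 0.00498) and Egr2 (0.77 ± 0.21, adjusted p = 0.0457), 2 of the 10 beside 6.67% of all tested genes. Leaving out either CUR library changed the CUR calls, among the 10 genes and among all tested genes. Over all settings the CUR log2 difference from Control ran from 2.30 to 3.58 for Ier3 and from 0.69 to 1.80 for Egr2. It ran from 0.43 to 0.996 for Jun, from 0.79 to 1.59 for Junb, from -0.06 to 1.80 for Fos and from 0.58 to 1.90 for Egr1. In ASA+CUR against Control it called 4 of the 10 beside 13.1% of all tested genes. These were Ier3 (2.996 ± 0.45, adjusted p = 0.00287), Fosl1 (1.86 ± 0.45, adjusted p = 0.0177), Jun (0.89 ± 0.23, adjusted p = 0.0224) and Junb (1.32 ± 0.36, adjusted p = 0.0274). Without ASA+CUR replicate 1, or without either Control library, Fosl1, Jun and Junb lost their calls, and Junb also did without ASA+CUR replicate 0. Calls over all tested genes fell in these fits as well. Egr2 and Fosl1 passed the filter only through AOM/DSS libraries, so their calls in these comparisons are a description. Fosb was not called in that comparison at 2.11 ± 0.87 (limma adjusted p = 0.105). The comparisons share the Control libraries, so their calls are not independent.

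No gene of the 10 was called between any pair of AOM/DSS groups. For ASA against Model, CUR against Model and ASA+CUR against Model limma called 0.0142%, 0.00711% and 0.0142% of all tested genes in either direction. ASA+CUR against ASA and against CUR gave 0% and ASA against CUR 0.00711%. Unadjusted p was under 0.05 for 1 of the 10 genes in ASA+CUR against Model, beside 10.1% of all tested genes, and for 0 in the other 5 of these comparisons. That gene was Fosl1, at 0.868 ± 0.986 FPKM in Model and 3.07 ± 1.10 in ASA+CUR (SD, n = 2 each), with a log2 difference of 1.20 ± 0.45 (limma adjusted p = 0.463, 95% interval 0.17 to 2.24), which was 0.64 without Model replicate 1. Both ASA+CUR libraries also lay above both ASA and both CUR libraries for Fosl1, by 1.00 ± 0.45 and 0.97 ± 0.45 on the log2 scale (limma adjusted p = 1 and 0.37), and the difference from CUR was 0.51 without CUR replicate 1.

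Ier3 was lowest in Model among the AOM/DSS groups, without a call. Its mean was 53.1 ± 18.0 FPKM in Model, against 80.8 ± 21.7 under ASA, 112 ± 67.1 under CUR and 107 ± 24.8 under ASA+CUR (SD, n = 2 each). The log2 differences from Model were 0.61, 0.97 and 1.02, each with an SE of 0.45, and the 95% intervals were -0.43 to 1.65, -0.07 to 2.01 and -0.02 to 2.07. Without Model replicate 1 they were 0.27, 0.62 and 0.68. The ASA difference was 0.96 without Model replicate 0 and 0.34 without ASA replicate 0, and the CUR difference was 0.32 without CUR replicate 0 and 1.61 without CUR replicate 1. Fosb differed from Model by 1.59 ± 0.87 in ASA+CUR, and Fos by 0.94 ± 0.58 in CUR (limma adjusted p = 0.535 and 0.934). For Fosb this was 0.999 without ASA+CUR replicate 0. For Fos it was 0.00815 without CUR replicate 0, 0.56 without Model replicate 1 and 1.86 without CUR replicate 1. Jun was nearly level over the AOM/DSS groups, at 81.9 ± 9.02 FPKM in Model, 83.5 ± 13.1 under ASA, 73.4 ± 20.2 under CUR and 82.5 ± 16.5 under ASA+CUR. No neighbours in these orders were called apart by limma.

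Jund, the constitutive family member that slows growth, held a smaller share of Jun family FPKM in every AOM/DSS library than in Control. Jund itself measured 71.4 and 75.4 FPKM in Control and 48.2 to 91.0 FPKM in AOM/DSS, with a pooled log2 difference of -0.26 ± 0.23 (SE, limma adjusted p = 0.425). As a share of the summed FPKM of Jun, Junb and Jund it made up 46.8% ± 3.48 in Control (SD, n = 2) and 26.6% ± 3.64 in AOM/DSS (n = 8, 20.2% to 30.3%). The share was lower in 8 of 8 AOM/DSS libraries, and a two-sided exact permutation test over libraries gave p = 0.0444, the smallest it can give with 2 against 8 libraries. Adjusted over the 2 family ratios tested, that p was 0.0889, which misses 0.05. Jun and Junb, which make up the rest of the sum, lay above both Control libraries in all 8 AOM/DSS libraries. The lower share of Jund is therefore not a result separate from theirs. Junb had the largest mean share over the 8 AOM/DSS libraries, at 38.9% ± 5.16 beside 25.5% ± 4.74 in Control, though Jun exceeded it in Model replicate 1 and in ASA replicate 1 (41.0% and 43.5% for Jun, 28.9% and 33.9% for Junb).

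The ratio of Fos family to Jun family FPKM did not differ beyond its spread, at 0.610 ± 0.105 in Control and 0.542 ± 0.129 in AOM/DSS (SD, n = 2 and 8, exact permutation p = 0.489, adjusted over 2 ratios 0.489). Fosl2, which encodes the widely expressed Fra-2, stood at 36.3 and 45.5 FPKM in Control and 41.5 to 59.0 in AOM/DSS (log2 difference 0.30 ± 0.15, limma adjusted p = 0.15). Fos and Fosl2 together supplied most of the family's FPKM in every library. Fosb and Fosl1 made up 3.94% and 1.15% of it in AOM/DSS and 1.15% and 0.113% in Control. CUR replicate 0 was the exception in its balance, with Fos at 78.8% of the family against 42.3% to 56.9% in the other 9 libraries.

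**Figure D3:**
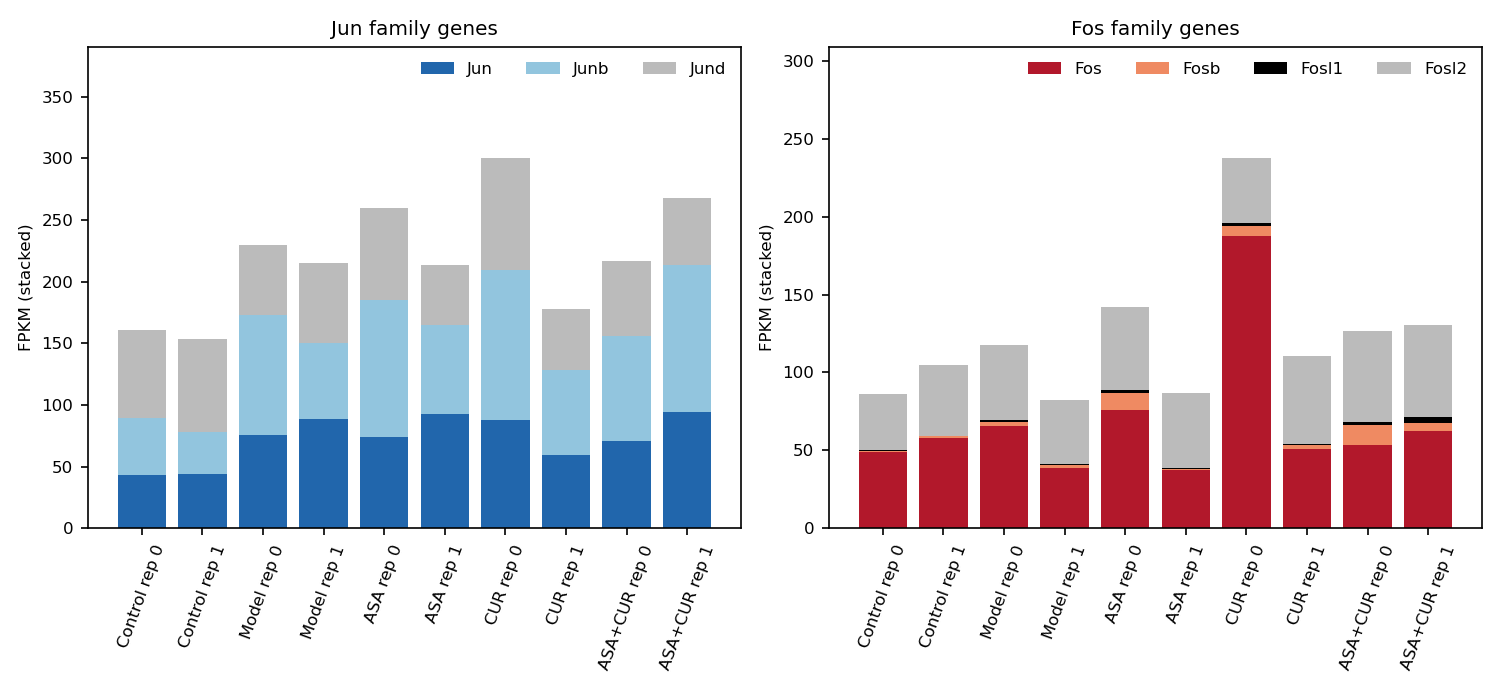
Stacked FPKM (vertical axis, linear from 0) of the Jun family genes (left) and the Fos family genes (right) in each of the 10 libraries (horizontal axis). Jund makes up 46.8% of the Jun family on average in Control and 26.6% in AOM/DSS, and Fos dominates the Fos family in CUR replicate 0.

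CUR replicate 0 was the highest of all 10 libraries for 5 of the 10 genes (Junb, Fos, Atf3, Egr1 and Ier3), and exceeded CUR replicate 1 for all 10. The median log2 difference between the 2 CUR libraries was 1.02 over the 10 genes and 0.00 over all tested genes, 50.2% of which were higher in replicate 0. Fos differed most, by 1.86 on the log2 scale. In the ASA pair 9 of the 10 were higher in replicate 0, with a median of 0.59, beside 49.3% and -0.003 over all tested genes. In the ASA+CUR pair 3 of the 10 were higher in replicate 0, with a median of -0.35, beside 47.4% and -0.013. The Control and Model pairs had 4 and 6 of the 10 higher in replicate 0, beside 50.5% and 52.9% of all tested genes. Other values moved between the CUR libraries as well. The colon epithelium markers were all higher in replicate 0 (11 of 11, a summed 17158 against 9586 FPKM), the colon position genes summed to 56.7 against 425 FPKM, and 28 of 33 other immediate early genes were higher in replicate 0. In the ASA pair the colon position genes summed to 339 FPKM in replicate 0 and 52.9 FPKM in replicate 1. There 4 of 11 colon epithelium markers and 24 of 33 other immediate early genes were higher in replicate 0. The part of these values in the gaps between replicates was not tested.

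**Figure D4:**
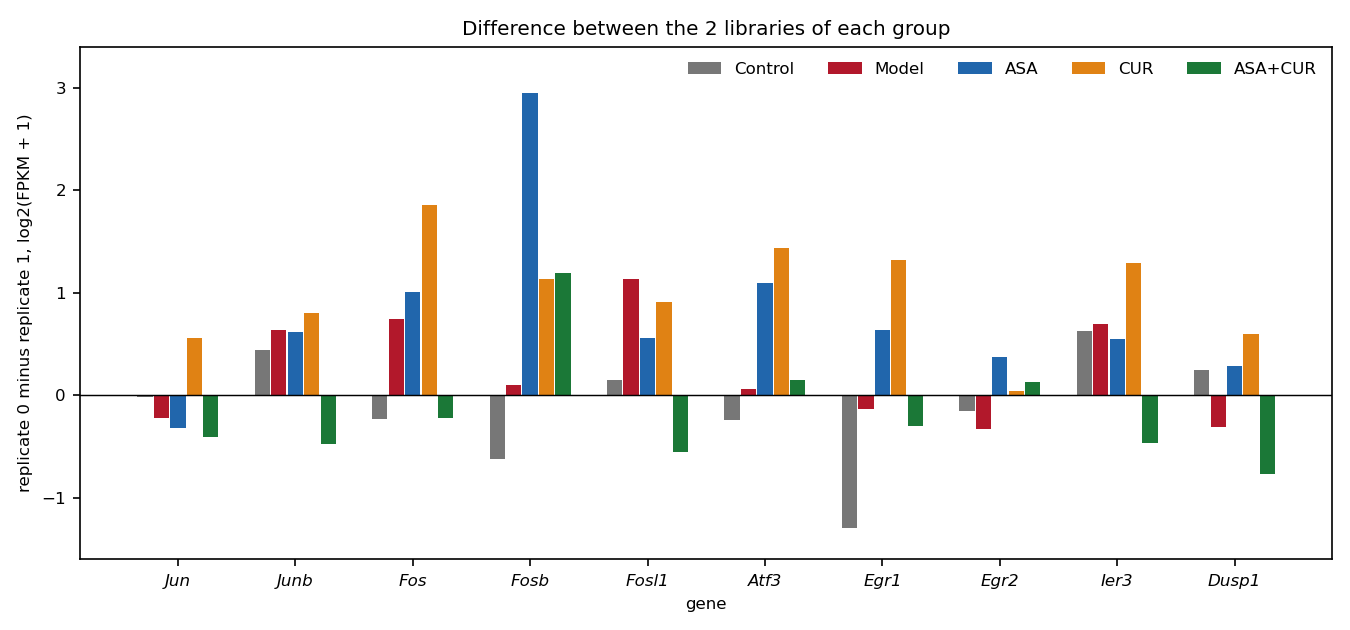
Difference between the 2 libraries of each group in log2(FPKM + 1), replicate 0 minus replicate 1 (vertical axis), for the 10 genes (horizontal axis), coloured by group. All 10 CUR bars point up, and the ASA bar for Fosb is the tallest at 2.95.

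Over the 8 AOM/DSS libraries the 10 genes did not all follow 1 pattern, but every pair of them without Jun or Egr2 was positively correlated. Pearson's r of log2(FPKM + 1), given as a description of libraries that share groups and tissue makeup, was 0.94 between Fos and Atf3, 0.88 between Fos and Egr1, 0.89 between Junb and Ier3 and 0.84 between Junb and Fosl1. Without CUR replicate 0 these were 0.75, 0.55, 0.87 and 0.87 over 7 libraries. Among the pairs without Jun or Egr2 the lowest r was 0.24, between Fosl1 and Atf3. Without CUR replicate 0 the lowest was 0.17, between Atf3 and Dusp1. For Jun r over the 8 libraries reached 0.56 at most, with Dusp1, and for Egr2 0.46 at most, with Atf3.

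Among the 1882 genes with an SD of log2(FPKM + 1) of at least 0.5 over those libraries, the genes most like each of the 10 by the same measure were as follows. Jun was closest to Ccn1 (r = 0.92), a secreted matrix protein gene, Angptl4 (0.90) and Gadd45g (0.88). Junb was closest to Ereg (0.94), which encodes the growth factor epiregulin, Plau (0.94), which encodes the protease urokinase, and Il11 (0.91). Fosl1 was closest to Plaur (0.94), which encodes the urokinase receptor, Sprr1a (0.93) and Ifrd1 (0.92). Ier3 was closest to the receptor kinase gene Epha2 (0.97), Gprc5a (0.96) and S100a14 (0.96). Plau ran from 17.1 to 70.2 FPKM over these libraries and Epha2 from 13.8 to 48.3 FPKM, each lowest in a library where the gene it resembles was also low.

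Of the others, Fos was closest to Omp (0.97) and Rab26os (0.95), and Atf3 to Omp (0.94) and Agpat4 (0.93), each of these highest in CUR replicate 0 of the AOM/DSS libraries. Fosb was closest to Apobec2 (0.95) and S100a3 (0.94), and Egr1 to Snhg20 (0.94), Hoxa5 (0.92) and Rab26os (0.88). Egr2 was closest to Dpt, Cox4i2 and Cd300lg (0.83, 0.82 and 0.82), the weakest likeness of the 10. Dusp1 was closest to Tmem190 (0.90), R3hdml (0.87) and Tnc (0.86). The third place for Fos and Fosb, and the first for Atf3, went to transcripts without a symbol of their own in the naming tables.

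The companion lists below are to be read against the 14.6% of all tested genes called higher and 16.9% called lower in the pooled comparison, and 6.84% and 9.34% in Model. These lists were chosen with earlier results of these data known, so their counts are a description. Genes that AP-1 is known to switch on were the companion list with the most calls, and AP-1 activity was not tested. Pooled AOM/DSS against Control, 16 of 20 were called higher and none lower by limma (median log2 difference 1.93). The matrix protease gene Mmp10 rose from 1.20 ± 0.397 to 166 ± 78.2 FPKM (SD, n = 2 and 8), with a log2 difference of 6.11 ± 0.34 (SE, limma adjusted p = 5.52e-05). The collagenase gene Mmp13 rose from 1.02 ± 0.262 to 85.5 ± 50.7 FPKM. The hyaluronan receptor gene Cd44 rose from 14.8 ± 1.07 to 49.5 ± 10.1 FPKM, and Timp1, an inhibitor of matrix proteases, from 2.23 ± 0.883 to 28.4 ± 8.40 FPKM. In Model alone 11 of 20 were called higher, among them Mmp9, at 0.859 ± 0.130 FPKM in Control and 26.2 ± 7.68 in Model (n = 2 each). Without Control replicate 1 the pooled count was 9. The Model count was 5 without either Control library and 6 without Model replicate 1. Neutrophils also carry Mmp9, and the neutrophil markers that rose in the same libraries are given above, their part not tested.

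Other immediate early genes were mixed. Pooled, 10 of 33 were called higher and 2 lower by limma (median log2 difference 0.36), beside 14.6% and 16.9% of all tested genes, and without either Control library the higher calls were 4 and 5. Socs3, a feedback inhibitor of cytokine signalling, rose by 2.71 ± 0.34 on the log2 scale (SE, limma adjusted p = 0.000985), from 4.27 ± 1.80 to 34.4 ± 12.4 FPKM (SD, n = 2 and 8). Ier5l rose from 1.11 ± 0.491 to 7.36 ± 2.29 FPKM. Myc, the growth regulator, rose from 18.4 ± 0.522 to 51.7 ± 8.39 FPKM, and the kinase gene Pim1 from 9.49 ± 3.12 to 23.9 ± 4.63 FPKM. In Model, 4 were called higher (Ier5l, Myc and Socs3 among them) and 1 lower, and without Control replicate 0 or 1 the higher calls were 2 and 1. That gene, Sgk1, which encodes a kinase of sodium transport, fell from 92.7 ± 17.4 to 29.7 ± 9.16 FPKM (n = 2 each).

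Of 15 other AP-1 and ATF genes (pooled median log2 difference 0.19), 2 were called higher and none lower in the pooled comparison and likewise in Model, where 14.6% and 6.84% of all tested genes were called higher. These were the small Maf genes Mafg (7.87 ± 0.200 to 28.3 ± 7.15 FPKM, pooled log2 difference 1.69 ± 0.16, limma adjusted p = 0.000291) and Maff (7.68 ± 2.09 to 24.5 ± 4.35 FPKM, 1.56 ± 0.21, limma adjusted p = 0.00141). The pooled and Model counts were each 4 without Model replicate 0, and the Model count was 1 without Control replicate 1 or Model replicate 1. Small Maf proteins have a leucine zipper but no activation domain of their own.

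Among 16 feedback inhibitors of MAP kinases, 6 were called higher and 1 lower in the pooled comparison by limma, and 2 were called higher without either Control library. Dusp4, a nuclear ERK phosphatase, rose from 2.22 ± 0.186 to 29.0 ± 11.2 FPKM (SD, n = 2 and 8), a log2 difference of 3.11 ± 0.37 (SE, limma adjusted p = 0.000755). Dusp14 rose from 2.06 ± 0.0945 to 6.06 ± 1.78 FPKM and Dusp10, a phosphatase of p38 and JNK, from 3.07 ± 0.187 to 7.31 ± 1.67 FPKM. Dusp8 fell from 5.71 ± 0.209 to 3.20 ± 0.581 FPKM. In Model the calls were Dusp4 higher and Dusp8 lower, and neither Model count held without a Control library. The median log2 difference of the list was 0.54 in the pooled comparison. Thus several phosphatase genes were called while Dusp1, one of the 10 genes, was not.

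The upstream list of MAP kinases and ternary complex factors had 2 of 18 genes called higher and 4 lower in the pooled comparison, beside 14.6% and 16.9% of all tested genes. Elk3, a ternary complex factor, rose from 4.55 ± 0.0113 to 19.9 ± 3.98 FPKM (SD, n = 2 and 8, log2 difference 1.89 ± 0.18, limma adjusted p = 0.000304). Map2k4, a kinase upstream of JNK, rose from 20.1 ± 0.615 to 27.4 ± 3.67 FPKM. Map2k1, the ERK kinase gene, fell from 125 ± 10.6 to 77.7 ± 8.46 FPKM, and Map2k6, a kinase upstream of p38, from a mean of 10.7 to 4.03 FPKM. In Model the calls were Elk3 higher and Map2k1 lower. Without Control replicate 0 the pooled calls were 1 higher and 1 lower, and without Control replicate 1 they were 1 and 0. Without Model replicate 0, ASA replicate 1 or either ASA+CUR library 2 were called lower.

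Heat shock genes, which respond to handling of tissue and to protein stress, were not called higher. Of 10, none was called higher and 2 lower in the pooled comparison by limma, beside 16.9% of all tested genes called lower. Hspb1 fell from 197 ± 59.8 to 57.0 ± 15.1 FPKM (SD, n = 2 and 8) and Hspa1a from 9.15 ± 1.57 to 4.43 ± 4.62 FPKM. The Hspa1a values were 15.1 and 6.85 FPKM in Model and 1.58 to 2.83 FPKM in the other 6 AOM/DSS libraries, so Model replicate 0 stood above Control. Without Control replicate 0 or 1 the pooled lower calls were 0 and 1. In Model the only call was Hspb1, lower, while 9 of the 10 had a positive log2 difference (median 0.34). The list summed to 3082 and 2751 FPKM in Model, and to 2287 and 1935 FPKM in Control. In CUR replicate 0 the list summed to 1761 FPKM, the lowest of the 10 libraries. Gene by gene, 8 of the 10 were nevertheless higher there than in CUR replicate 1 (median log2 difference 0.23). The part of handling or protein stress in the values of any library was not tested.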

How the data were processed

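RNA-seq of 10 mouse colon libraries was used, and groups came from the sample titles. The values are FPKM per RefSeq transcript, as deposited by the authors. Per the submitters' processing notes, the tools were Cuffdiff (version not stated there), Bowtie2 2.1.0.0, TopHat2 2.0.9 and bcl2fastq 2.17.1.14, with mm10/GRCm38; their settings are not given in the sources used here. FPKM of 30073 transcript rows was summed to 23473 genes (29443 rows named by RefSeq GRCm38.p6, 179 by GENCODE, 451 under their own identifiers). FPKM removes read totals, so depth is unknown and no count test was run.

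Group means were compared by limma (3.58.1, under R 4.3.3) as differences in log2(FPKM + 1). A single fit of 5 group means had an intensity trend, 5 residual and 2.96 prior degrees of freedom. Genes entered when 2 or more libraries reached 1 FPKM. There were 11 comparisons. Adjusted p-values are two-sided, by Benjamini-Hochberg over 14061 genes, at a threshold of 0.05. Fold changes on this scale understate the change of low genes. Family ratios were tested by exact permutation over libraries. The fit was tested on simulated data.

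The 10 genes and the 7 companion lists were chosen with earlier results of these data known. Genes named are the 10, up to 4 called genes per companion list by smallest p (pooled and in Model), Jund, Fosl2, Egr3, Nab1 and Nab2, and the 3 genes most like each of the 10. Alternatives were other pseudocounts, filters, scalings, variance models, a replicate block, the compared groups alone, and leaving out each library. The replicate block was decided on by whether same-numbered libraries deviated together: the correlation of replicate differences between groups ran from -0.21 to 0.33, so the numbers were not taken as pairs.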

Additional observations from a re-analysis of the deposited data

Results flagged for a closer look

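Among the 8 AOM/DSS libraries, CUR replicate 0 stood apart from the others for 3 of the 10 genes, by the gap to the next library relative to the whole range. Fos was at 187.3 FPKM there and at 75.9 FPKM in the next highest library, a gap of 0.742 of the range. Egr1 was at 31.97 FPKM with 18.9 FPKM next, a gap of 0.649 of the range. Atf3 was at 52.55 FPKM with 29.2 FPKM next, a gap of 0.593 of the range. Both ends were looked at in each of the 10 genes on linear FPKM, where gaps at the high end are wider than on the log2 scale. The usual chance rate of about 1 in 20 groups assumes values from 1 normal population, whereas these libraries came from 4 groups. The 3 values come from the same library and are not independent. Without that library the pooled difference from Control on the log2 scale was -0.00317 for Fos and -0.15 for Atf3.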

How the results depend on the processing

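Leaving out 1 library at a time gave 0 to 1 of the 10 genes called in Model against Control (3 with all libraries), 0 to 2 in ASA against Control (2), 0 to 5 in CUR against Control (2), 1 to 3 in ASA+CUR against Control (4) and 1 to 6 in all AOM/DSS against Control (4). In those fits a group left with 1 library is assumed to vary like the others. Leaving out either Control library also lowered the calls over all tested genes in every comparison with Control. Calls over all tested genes rose in the pooled comparison without either CUR library, and in CUR against Control without CUR replicate 1. The changed counts in these fits are therefore not read as a trait of the 10 or of a companion list. CUR against Control gave 1 call with upper quartile scaling, 4 with quantile normalization and 1 with only the groups compared. The shares of all tested genes called higher were 6.75%, 6.90% and 5.48%. Counts in the other settings stayed within 1.5 times the reported count, and no comparison between AOM/DSS groups gained a call. Of the companion list counts, 69 moved by more than 1.5 times, mostly without a library. Other immediate early genes called higher in Model were 7 with the replicate block (4 reported), MAP kinase feedback inhibitors 2 with upper quartile scaling and 3 with only the groups compared (1 reported), and upstream kinases called higher in all AOM/DSS 4 with upper quartile scaling (2 reported).

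Among the differences given singly, 8 values changed sign, all of Fos or Atf3. For Fos in Model against Control the log2 difference was 0.0455 with quantile normalization, and -0.44 to 0.30 over the fits without 1 library. Over such fits the pooled difference was -0.00317 to 0.46 for Fos and -0.15 to 0.21 for Atf3, and Fos in ASA against CUR ran from -1.80 to 0.0601. Among the member changes not given singly above, 76 of the values under another setting changed sign. Egr2 in Model against Control had no value with only the groups compared, since it did not pass the filter there.

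With the replicate block the calls were 2 in Model, 3 in ASA, 2 in CUR, 4 in ASA+CUR and 5 in all AOM/DSS against Control, and 0 in every comparison between AOM/DSS groups. Same-numbered libraries did not deviate together, so the block is a setting and not a pairing. The added counts of companion lists, and the family ratios without CUR replicate 0 (Jund share p = 0.0556 by exact permutation, the smallest possible with 2 against 7 libraries), were chosen after seeing the data. Depth is unknown, and 2 libraries per group limit the precision.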
